A study of Mus musculus with 6 samples.

Results

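The regions described here lie on mouse chromosome 3 within 20 Mb of the gene Tlr2, between positions 63600000 and 103600000 of build mm9, with the centre at 83600000. They were chosen by position alone: every spot of the methylation array in this window was taken, and a region is a run of spots with no more than 500 bp from one start to the next. The window holds 1541 of 103507 positioned spots, in 516 of 35017 regions. After spots not above background or marked as outliers were left out, 431 of these 516 regions could be measured, which is 1.46% of the 29588 measurable regions. Of the 431, 136 rested on 1 spot and 295 on at least 2, and the fullest held 18.

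The series compared scraped colonic mucosa of C57BL/6 mice aged 90 postnatal days, either wild type or Tlr2 knockout (Tlr2-/-). Methylation was measured on 2 two-colour arrays, each with the DNA of 1 knockout sample in Cy5 and of 1 wild-type sample in Cy3. The arrays are named pair 1 and pair 4 after the knockout sample. Transcripts were measured on 4 further two-colour arrays, for pairs 1, 2, 4 and 5, with the knockout in Cy3 on pairs 1 and 2 and in Cy5 on pairs 4 and 5. The labels name neither the Tlr2 allele nor the origin of the line, and they do not say outright that each sample code is a separate animal, although the series' design text calls the comparisons independent. The scraped tissue held several cell types. Of the 9 colonic epithelium markers on the expression arrays, 9 were above background in both genotypes on all 4, as were 4 of 4 smooth muscle markers and 3 of 3 T cell markers. Of 3 adipocyte markers, 2 were above background, and the mean log2 ratios of the 3 ranged from 0.66 to 0.97, higher in the knockout, while those of the other lists lay between -0.40 and 0.48. The part of such cells in the methylation values was not tested. Of 3 liver genes taken as markers that should be absent, Alb was not above background and the other two were.

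Tlr2 encodes a cell-surface receptor of the innate immune system that recognises bacterial lipoproteins, together with Tlr1 or Tlr6. In mammals, DNA methylation is found mostly on the C of CpG dinucleotides, and dense methylation of a promoter usually goes with a silent gene. The array reads methylation through the restriction site CCCGGG, which holds a CpG. SmaI cuts this site only when it is unmethylated and leaves blunt ends. XmaI then cuts the methylated sites and leaves overhangs to which adaptors are joined, so that the stretch between a pair of neighbouring methylated sites, a SmaI interval, is amplified and gives signal. A lower knockout signal is therefore read as less methylation at 1 or both ends of an interval. The signal also needs the site itself, so loss of methylation and loss of the site cannot be told apart by this assay. Both methylation arrays carry the knockout in the same dye, so dye and genotype cannot be told apart either, nor can the genotype and any stretch of chromosome 3 inherited with the Tlr2 allele.

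The site and its surroundings at the gene itself are shown by the promoters of Tlr2 and of its nearest protein-coding neighbours on either side, Sfrp2, which encodes a secreted modulator of Wnt signalling, and Tmem131l. Each stretch runs from 250 bases before to 50 bases after the annotated start, 5′ to 3′ on the gene's strand, from RefSeq on build GRCm38.p6. The Tlr2 stretch is chr3:83841559-83841858 on the minus strand, the Sfrp2 stretch chr3:83766071-83766370 on the plus strand and the Tmem131l stretch chr3:84040112-84040411 on the minus strand. Capitals mark CG in Tlr2 and the SmaI site in the other two.
Tlr2: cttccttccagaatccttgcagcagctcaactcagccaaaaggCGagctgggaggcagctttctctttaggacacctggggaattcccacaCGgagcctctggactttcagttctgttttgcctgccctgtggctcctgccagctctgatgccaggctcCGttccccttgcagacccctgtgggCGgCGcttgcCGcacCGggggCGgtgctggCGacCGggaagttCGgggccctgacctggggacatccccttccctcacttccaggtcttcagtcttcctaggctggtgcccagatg
Sfrp2: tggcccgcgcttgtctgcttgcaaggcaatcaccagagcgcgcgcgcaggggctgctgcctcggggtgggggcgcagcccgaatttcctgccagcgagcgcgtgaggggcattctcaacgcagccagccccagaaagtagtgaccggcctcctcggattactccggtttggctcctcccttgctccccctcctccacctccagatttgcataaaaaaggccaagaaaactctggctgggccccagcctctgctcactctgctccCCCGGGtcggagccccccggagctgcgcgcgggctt
Tmem131l: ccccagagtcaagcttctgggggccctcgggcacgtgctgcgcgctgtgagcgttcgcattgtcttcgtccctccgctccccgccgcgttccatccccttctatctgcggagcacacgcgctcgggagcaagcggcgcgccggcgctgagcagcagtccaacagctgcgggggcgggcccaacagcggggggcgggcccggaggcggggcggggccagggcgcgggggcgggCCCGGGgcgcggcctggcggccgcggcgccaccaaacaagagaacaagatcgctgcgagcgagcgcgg
The Tlr2 stretch holds 11 CG and no SmaI site. The site reads the same on both strands, and it was found once each in the Sfrp2 and Tmem131l stretches. The 10 nearest protein-coding genes have 15 promoters in the table, of which 4 hold the site, against 4436 of all 32851 promoters of this length (13.5%). These positions belong to another build than the array, so no spot was placed on a promoter, and no measured region is assigned to a gene here.

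The transcript of the deleted gene was lower in the knockout on all 4 expression arrays. Its log2 ratio of knockout over wild type was -4.42 in pair 1, -5.31 in pair 2, -5.50 in pair 4 and -4.20 in pair 5. The mean was -4.86 ± 0.64 (SD, n = 4), a level 29.0-fold lower, with an adjusted p of 0.317 in limma over 14700 genes. That p does not pass 0.05, although the 4 arrays share the direction and their spread is small beside the mean. Starting from the scanner's processed signals without loess, the mean was -6.43 and the adjusted p in limma 0.00408.

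Methylation signal within 20 Mb of Tlr2 differed between the genotypes in a small number of regions, some of them by large amounts. By the submitters' rule, which asks for a change over 1.6-fold in the same direction on both arrays, 18 of 431 regions were lower in the knockout (4.18%), against 473 of all 29588 regions (1.6%). Another 14 were higher (3.25%), against 576 of all regions (1.95%). The gap to the background widened with the size of the change. Over 4-fold lower on both arrays were 8 of 431 window regions (1.86%), against 26 of all regions (0.0879%), so that 8 of those 26 lie in the window. Over 4-fold higher were 4 window regions (0.928%), against 58 of all (0.196%).

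The same counts were taken over regions whose signal was above background in both channels on both arrays, 402 in the window and 27715 in all. A region counted as such where, for each channel and array, any of its spots was above background. There, 18 window regions were over 1.6-fold lower (4.48%, against 1.54% of all) and 7 were higher (1.74%, against 0.621%). Of the 14 regions in the whole series that were over 4-fold lower, 8 lie in the window (background 0.0505%), and of the 4 that were over 4-fold higher, 3 lie there (background 0.0144%). These 3 are pieces of a single listed SmaI interval that joining had split, and the 8 lower regions form 7 such intervals. The 3 lowest mean ratios of all 29588 regions were window regions, and so were 4 of the 10 lowest. Among single spots, 24 of the 55 that were over 4-fold lower on both arrays lie in the window, which holds 1402 of 95700 spots kept. Most of these 24 belong to the same 7 intervals.

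**Figure D1:**
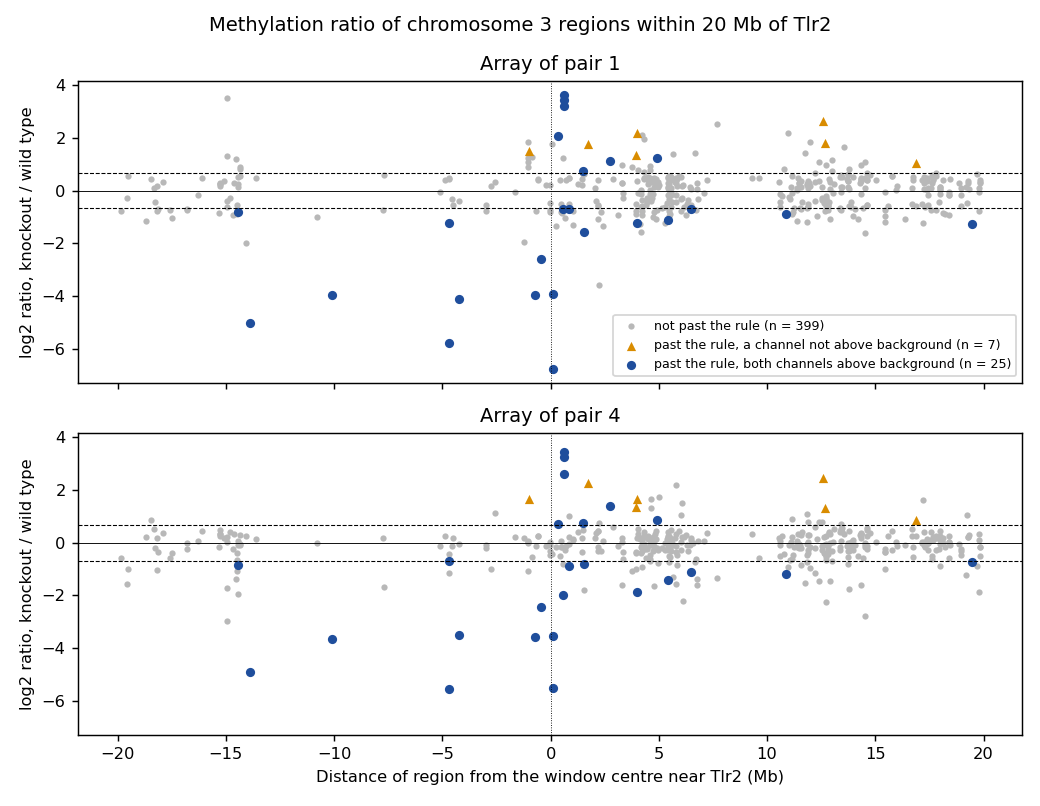
Log2 ratio of knockout over wild type for each of the 431 measured regions (y axis) against its distance in Mb from position 83600000 of chromosome 3 (x axis), for the arrays of pair 1 and pair 4. Dashed lines mark a 1.6-fold change. Blue points passed the rule with both channels above background and lie below -2 on both arrays only between -13.9 and 0.11 Mb, while orange triangles passed it with a channel not above background.

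The regions over 4-fold lower form 7 of the SmaI intervals that the authors list, and the listed borders are used for them here. They are given from the far side of the window towards Tlr2. Each value is the mean log2 ratio over the spots of the interval after centring each array on its median, and signals are the median processed signals of the same spots.

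The interval chr3:69708670-69709890 lies 13.9 Mb before the centre and holds 4 spots. The wild-type signal was 8432 and the knockout signal 229 on the array of pair 1, and they were 3074 and 102 on that of pair 4. The log2 ratios were -5.01 and -4.87. All 4 spots were lower on both arrays, from -2.94 to -6.21.

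The next, chr3:73478863-73479389, lies 10.1 Mb before the centre. Signals were 11697 in wild type and 623 in knockout on pair 1, and 4597 and 347 on pair 4. The log2 ratios were -3.96 and -3.63, and the 4 spots ranged from -2.93 to -5.16.

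An interval 4.68 Mb before the centre, chr3:78920685-78921598, had the lowest interval mean in the window. The wild-type signal of 37493 on pair 1 stood against a knockout signal of 666, and that of 11768 on pair 4 against 231. The log2 ratios were -5.78 and -5.55, 54.9-fold and 46.8-fold lower. The 3 spots kept lay between -4.86 and -6.35. A spot 703 bp before this interval, at chr3:78919923-78919982, had 0.44 and -0.43. Its signals were weak in both genotypes, 67.3 in wild type and 94.2 in knockout on pair 1, and 19.3 and 15.2 on pair 4. It therefore does not show where the low knockout signal ended.

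The interval chr3:79371261-79371544, 4.23 Mb before the centre, is 284 bp long and was read by 2 spots of a single position. Signals were 37447 in wild type and 2234 in knockout on pair 1, and 6725 and 635 on pair 4. The log2 ratios were -4.11 and -3.50. The nearest spot after it, 9301 bp away, had -0.54 and -0.05.

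Closer to Tlr2, the interval chr3:82891857-82892514 lies 0.708 Mb before the centre. The wild-type signal was 58449 on pair 1 against 3280 in the knockout, and 16486 on pair 4 against 1279. The log2 ratios were -3.96 and -3.58. The interval chr3:83147070-83148511, 0.452 Mb before the centre, was the least reduced, with -2.59 and -2.44. Its signals were 12659 and 2191 on pair 1, and 6425 and 1270 on pair 4, from 2 spots of a single position.

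The interval nearest to the centre, chr3:83705005-83706654, lies 0.106 Mb after it and held 3 kept spots. The median wild-type signal was 11886 on pair 1, against 318 in the knockout, and 4080 on pair 4, against 146. The interval's log2 ratios were -4.85 and -4.18. Joining at 500 bp split it, and its last spot, chr3:83706018-83706070, alone made the lowest region of the whole series, at -6.75 and -5.50. In all 7 intervals every kept spot was lower in the knockout on both arrays, and the interval's fold was larger on pair 1 than on pair 4.

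**Figure D2:**
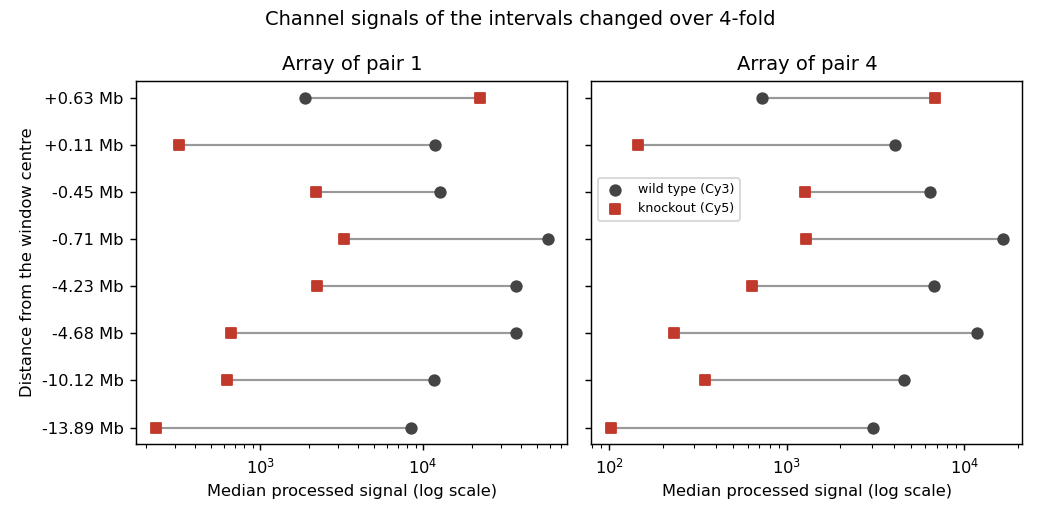
Median processed signal in arbitrary units (x axis, log scale) of wild type (Cy3, circles) and knockout (Cy5, squares) for the 8 listed intervals changed over 4-fold, ordered by distance from the window centre (y axis, Mb). In 7 intervals the knockout is the lower of the pair on both arrays, and in the interval at +0.63 Mb it is the higher.

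Within an interval the spots were not equally low. In the interval nearest to the centre, the spot 4 bp from the interval's end had -2.31 and -2.13. The spot 375 bp from an end had -5.49 and -4.90, and the spot 584 bp from an end had -6.75 and -5.50. In the interval at 69.7 Mb, the spot 58 bp from an end had -3.21 and -2.94, while the other 3 lay between -4.54 and -6.21. In the interval at 82.9 Mb, the spot at the border had -2.99 and -2.52, against -4.94 and -4.57 for the spot 195 bp inside, while another inner spot, 148 bp from an end, had -3.29 and -2.97. Distance from the end therefore did not order all spots, and at 69.7 Mb the spot 491 bp inside had -5.85 on pair 1 against -6.21 for the one 221 bp inside. Both intervals read from a single position were read 17 or 18 bp from their end.

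**Figure D3:**
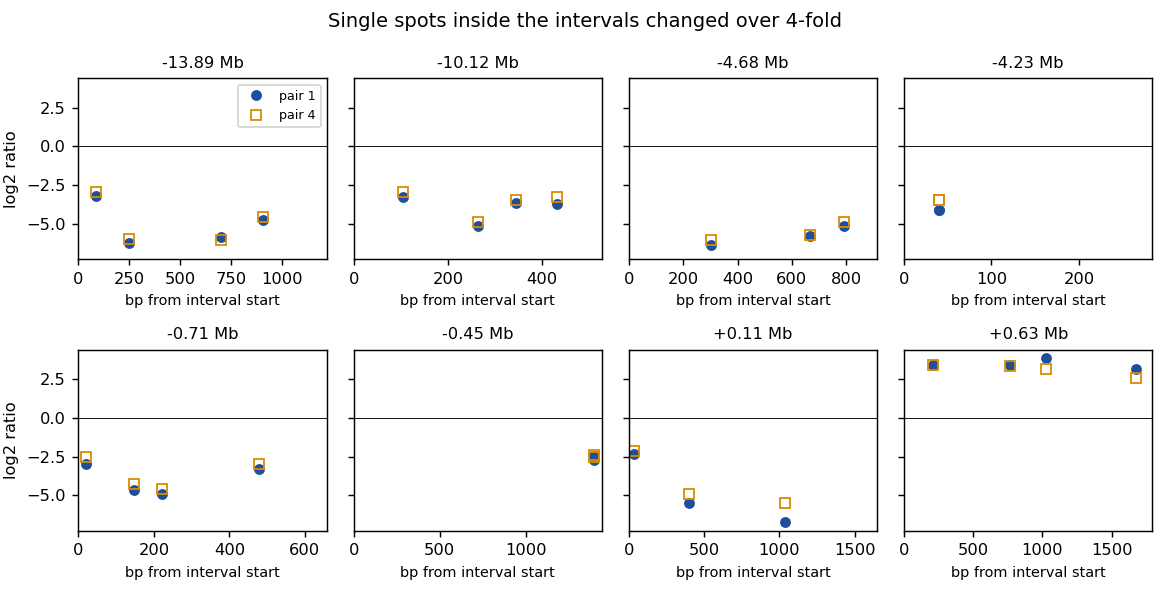
Log2 ratio of knockout over wild type (y axis) of single spots against their distance in bp from the start of the listed interval (x axis), for the 8 intervals changed over 4-fold; circles are pair 1 and squares pair 4. Ratios varied along an interval, such as -2.31 at the border and -6.75 inside on pair 1 at +0.11 Mb. The 2 arrays lie on the same side of 0 at each spot. They differ most at +0.11 Mb, with -6.75 on pair 1 and -5.50 on pair 4.

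One interval stood out in the other direction. At chr3:84232070-84233864, 0.633 Mb after the centre, the knockout signal was the higher one on both arrays. The wild-type signal was 1879 and the knockout signal 22298 on pair 1, and they were 728 and 6813 on pair 4. The log2 ratios were 3.46 and 3.12, or 11.0-fold and 8.72-fold. All 4 spots were higher on both arrays, from 2.58 to 3.85. Joining split this interval into 3 regions, and these are 3 of the 4 regions in the whole series that were over 4-fold higher with both channels above background.

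A second interval in this direction, chr3:86342772-86343113, lies 2.74 Mb after the centre and had log2 ratios of 1.11 and 1.38. Its signals were 11236 and 25730 on pair 1, and 3180 and 8944 on pair 4, with all 4 spots between 0.97 and 1.46. The interval chr3:85097131-85099166, which lies between these 2, was near the threshold, at 0.72 and 0.67. Its last 3 spots made a region of their own, which passed the rule at 0.75 and 0.73.

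The fourth region over 4-fold higher, chr3:96165634-96165692, was a different case. It is 1 spot with a wild-type signal of 10.8 on pair 1 and 2.80 on pair 4, not above background on either array, against 68.2 and 16.1 in the knockout. No fold is given for it. Of the 14 regions past the rule in the higher direction, 7 had the wild-type channel not above background on at least 1 array, and 6 of those on both. All 7 were single spots. All 18 regions past the rule in the lower direction were above background in both channels, and 10 of them rested on at least 2 spots.

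The regions next to the centre were mixed. The nearest one before it, chr3:83588231-83588750, 11.5 kb away, had log2 ratios of 0.19 and 0.01 over 4 spots. Its signals were 22035 in wild type and 26055 in knockout on pair 1, and 7527 and 8301 on pair 4. The region chr3:83567959-83568912, with 6 spots 31.6 kb before the centre, had -0.73 and -0.07, and a further region 201 kb before it had 0.20 and -0.11. None of these 3 passed the rule. A pair of single spots, 30.5 and 29.8 kb before the centre, had -0.80 and -0.31, and -0.49 and -0.48.

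After the centre, the first region was a single dim spot at 55.4 kb, chr3:83655321-83655380, with a channel not above background, and its ratios had opposite signs. Then came the strongly lower interval at 0.106 Mb. The region chr3:83843807-83844404, with 6 spots 244 kb after the centre, had -1.34 on pair 1 and -0.18 on pair 4, and did not pass the rule. The region chr3:83958053-83958839, 358 kb after the centre, passed it in the higher direction, at 2.04 and 0.68, but with weak signals of 23.3 and 114 on pair 1 and 26.9 and 39.7 on pair 4. At 439 kb, chr3:84038740-84039164 had 0.40 and -0.50. Strongly lower regions, regions short of the rule and higher regions therefore lay side by side around the centre.

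The 8 regions over 4-fold lower ran from 69708728 to 83706070, and all but the interval nearest to the centre lay before it. That span holds 41 measured regions, of which 14 stayed within 1.6-fold of no change on both arrays. With the higher interval at 84.2 Mb, the span is 14.5 Mb with 52 regions, 8 of them over 4-fold lower, 3 over 4-fold higher and 16 within 1.6-fold on both arrays. The rest of the window holds 379 regions. There, 0 were over 4-fold lower, 1, the dim spot named above, was over 4-fold higher, and 228 were within 1.6-fold on both arrays. The median ratios of the 52 regions were -0.19 on pair 1 and -0.13 on pair 4, against 0.09 and -0.04 in the rest of the window. The ends of the span were set by the values themselves, so this is a description with no test.

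Counted in steps of 2 Mb, the share of regions past the rule was highest, among steps with at least 10 regions, from 0 to 2 Mb after the centre, where 5 of 30 regions were lower and 6 higher (36.7%). Of those 30, 5 were lower and 5 higher with both channels above background. Some of these were pieces of a listed interval that joining had split. Such intervals were chr3:83705005-83706654 among the lower and chr3:84232070-84233864 among the higher. From 2 to 0 Mb before the centre, 2 of 18 regions were lower and 1 higher (16.7%). From 6 to 4 Mb before it, 3 of 10 were lower, and from 2 to 4 Mb after it, 2 of 23 were higher and 0 lower. Between 14 and 10 Mb before the centre only 4 regions could be measured, and 2 of them were among the strongly lower ones. Coverage was uneven: 85 regions lay from 4 to 6 Mb after the centre, and 0 from 10 to 8 Mb before it. Beyond 14 Mb after the centre, 93 regions held 1 lower and 1 higher region.

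Away from the span, the lower regions had smaller ratios. The interval chr3:87562083-87564098, 3.96 Mb after the centre, had -1.59 and -1.94 on its 4 spots. One of them, chr3:87562782-87562835, had -3.38 and -3.04, while the spot at the far border had -0.36 and -1.37. The spots just outside, 18 bp before and 41 bp after the interval, had -0.51 and 0.06, and -0.45 and -0.06. In the interval chr3:99045365-99046035, 15.4 Mb after the centre, 3 spots gave -1.82 and -1.14, of which the first had -2.43 and -2.26. As joined regions, which also take in spots of the neighbouring intervals, neither passed the rule.

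The lower regions with at least 2 spots beyond 6 Mb after the centre passed the rule by a small margin. The region chr3:90096388-90097322 had -0.70 and -1.10, chr3:94491812-94491860 had -0.88 and -1.19, and chr3:103083055-103084244 had -1.27 and -0.74. On the last of these, the single spots ran from -0.41 to -2.25 on pair 1 and from -0.23 to -1.31 on pair 4. A higher region with 2 spots, chr3:88519131-88519273, had 1.22 and 0.85 with weak signals, 70.5 in wild type and 162 in knockout on pair 1.

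The window as a whole lay close to the other regions. The median log2 ratio of the 431 regions was 0.08 on pair 1 and -0.06 on pair 4, against 0.16 and -0.02 over all 29588 regions and 0.23 and 0.02 over the 736 regions of the rest of chromosome 3. Both arrays gave the same direction for 257 window regions (59.6%), against 60.2% of all regions. The spread of the ratios was wider in the window, with an SD over regions of 1.02 on pair 1 and 0.905 on pair 4, against 0.743 and 0.634 over the other regions. Across the 431 regions, which share 2 arrays and are not replicates, Pearson's r between the arrays was 0.46 and Spearman's rho 0.17, against 0.04 and 0.15 over all regions. Without the regions changed over 4-fold on both arrays, r was -0.04 over 419 window regions and -0.01 over 29504 regions in all. The higher r of the window therefore rested on its 12 regions changed over 4-fold. These values are given as a description, with no test.

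**Figure D4:**
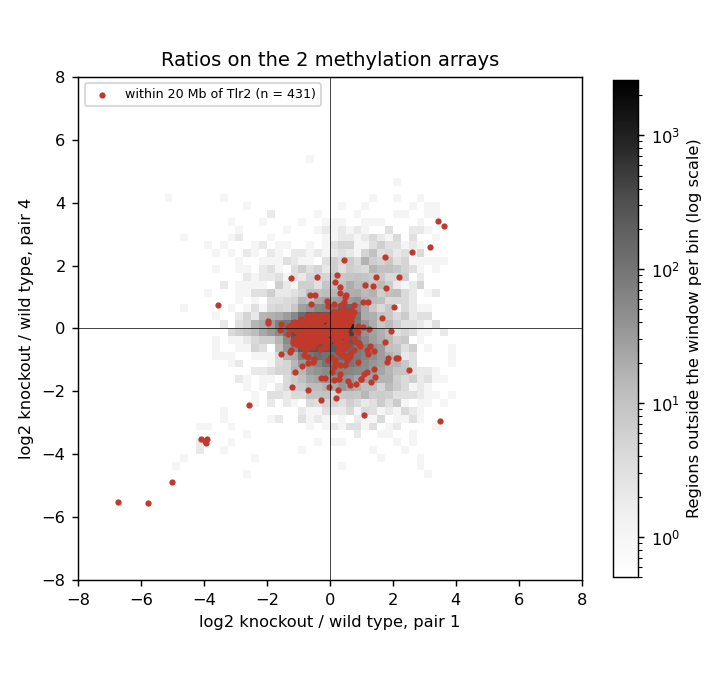
Log2 ratio on the array of pair 4 (y axis) against that of pair 1 (x axis). Red points are the 431 window regions and grey bins count the regions elsewhere on a log scale. The 8 strongly lower window regions lie along the diagonal at the lower left and 4 at the upper right. Most other points form a cloud around 0.

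The arrays also disagreed in some regions that rested on many spots. Among the 66 window regions with at least 5 spots, 21 lay on opposite sides of 0. The largest difference among these 66 was in chr3:87763261-87764948, with 7 spots, at -1.55 on pair 1 and 0.15 on pair 4. Its signals were 19574 in wild type and 5757 in knockout on pair 1, and 1859 and 2248 on pair 4. The region chr3:98143231-98143942 had -1.61 and -0.03, and chr3:88893755-88896220, with 17 spots, had -1.24 and -0.01. Regions of fewer spots could differ more. With both channels above background, chr3:68662477-68663081, with 3 spots, had 3.50 on pair 1 and -2.95 on pair 4. The median absolute difference between the arrays was 0.456 over the window, 0.434 over all regions and 0.353 over the 12 regions changed over 4-fold. Those 12 were picked for a change in the same direction on both arrays, so their value is no measure of agreement.

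With 2 arrays, limma called 0 of the 431 regions, and 0 of all 29588, at an adjusted p under 0.05. Its smallest adjusted p was 0.370, shared in the window by 7 of the 8 regions over 4-fold lower and by 2 of the 3 regions of the higher interval at 84.2 Mb. At an unadjusted p under 0.05, limma had 35 window regions (8.12%), against 1411 of all regions (4.77%). Of these 35, 21 were lower (4.87%, against 2.49%) and 14 higher (3.25%, against 2.28%). The call depended on how the spread was estimated. Restricted to regions of at least 2 spots, limma called 9 of 20873 regions (0.0431%), and 7 of the 9 lie in the window. Of these 7, 6 were lower (2.03% of 295 window regions, against 0.0383% of all) and 1 higher (0.339%, against 0.00479%). With a trend on signal and a robust prior, limma called 27 of 29588 (0.0913%), of which 11 lie in the window. There, 8 were lower (1.86% of the window, against 0.0406% of all) and 3 higher (0.696%, against 0.0507%). These 11 are the 8 regions over 4-fold lower and the 3 regions of the higher interval at 84.2 Mb. After normexp background correction limma called 17 window regions lower (3.94% of the window, against 2.07% of all) and 4 higher (0.928%, against 0.0608%). After loess it called 8 window regions lower (1.86%, against 0.098%) and 6 higher (1.39%, against 0.575%).

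The authors' deposited tables of intervals past the same rule list 387 intervals, 246 lower and 141 higher in the knockout. In the window they list 16, of which 13 are lower (5.28% of the lower list) and 3 higher (2.13% of the higher list). The window holds 1.46% of all measurable regions, and the higher share, on 3 intervals, lies near that. The tables do not name the build of their positions, but 386 of the 387 intervals hold a spot of the mm9 array. In the authors' deposited table, 9 lower intervals have a ratio below 0.25 on both arrays, and 7 of them are the ones described here. In that table the interval at 69.7 Mb has ratios of 0.0368 and 0.0475, and the one at 78.9 Mb 0.0267 and 0.0322. The authors' deposited table gives the higher interval at 84.2 Mb ratios of 11.4 and 9.04, and 1 of the 3 intervals listed above 4 on both arrays is this one.

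Of the 16 listed intervals, 14 passed the rule in the values computed here. The other two were chr3:84140481-84141762, at -0.85 and -0.17 over 2 kept spots, for which the authors' deposited table gives ratios of 0.534 and 0.526, and chr3:85097131-85099166, just under the threshold on pair 4. In the opposite direction, 7 lower and 2 higher window regions that passed the rule with both channels above background are not listed. Examples are chr3:89032792-89032842, a single spot at -1.11 and -1.40, and chr3:87612897-87612956, a single spot at -1.21 and -1.86. The latter had weak signals of 82.3 and 36.6 on pair 1.

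Transcripts of the measured genes next to Tlr2 in RefSeq order were compared on the 4 expression arrays. Of 10 genes on either side, 20 in all, 1 passed the submitters' rule for transcripts (5%), against 211 of the other 14699 genes (1.44%). This gene, Mnd1, which encodes a factor of meiotic recombination, had log2 ratios of 0.92, 0.84, 0.75 and 0.59. The mean ratios of the 20 ranged from -0.41 to 0.78. Sfrp2 had -0.25, -0.04, 0.04 and 0.29, and Tmem131l -0.18, -0.10, 0.10 and 0.32, with no direction shared by the 4 arrays.

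At the borders of the window nothing stood out. The first region inside, chr3:63767620-63768201, had -0.76 and -0.57, and the last region before the window had -0.58 and 0.32. The last region inside, chr3:103413689-103414163, had 0.31 and -0.18, and the first one after it 0.70 and 0.13.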

How the data were processed

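Colonic mucosa DNA of 2 pairs and RNA of 4 pairs of knockout and wild-type samples was hybridised to Agilent arrays. Groups, pairs and dyes came from the labels. The deposited scanner files hold intensity per channel, made with Agilent Feature Extraction. Its version is 10.5.1.1 by the file headers, while the submitters' processing notes give 8.5.1.1. The processed intensity was background subtracted with a linear dye scaling, per the file headers. The deposited log10 ratio of Cy5 over Cy3 served as an alternative. The authors deposited tables of intervals with a linear ratio per array, whose normalization the sources used here do not state.

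For methylation, control spots were left out, log2 ratios of processed signals were centred on each array's median over all positioned spots, and spots were joined while starts were no more than 500 bp apart. Outlier spots, and those dim in both channels of an array, were dropped before averaging, which kept 91.0% of window spots. Regions were judged by the submitters' 1.6-fold rule on both arrays and by limma 3.58.1 (lmFit, eBayes, Benjamini-Hochberg over 29588 regions, R 4.3.3). With 1 difference per region, that p rests largely on limma's prior of 3.01 degrees of freedom. P-values measure the spread between these samples only, and the small number of arrays limits their precision. The limma procedure was also run on simulated regions that all had the same spread. That run does not show how limma performs where spreads differ between regions. For transcripts, median signals were corrected with normexp (offset 50) and loess, and tested in limma with a dye effect.

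Named regions are the nearest on each side of the centre with the 5 next, regions of at least 2 spots past the rule, listed intervals, regions of at least 5 spots that differ most between arrays, and regions called by limma. Other regions named, the strongest single spots among them, were chosen after their values were seen. Members and lists were chosen with earlier results of these data known. No mm9 genome or annotation was used here, so regions carry no gene or sequence. Alternatives changed the joining distance, filters, background correction, centring, fold and limma's prior, and left out an array.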

Additional observations from a re-analysis of the deposited data

How the results depend on the processing

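The 8 window regions over 4-fold lower numbered 7 to 8 under every alternative that joined spots at 500 bp or more and kept both arrays. They were 13 of 37 in all when joined at 250 bp, and 24 of 55 as single spots. The counts by the 1.6-fold rule moved more, partly with the number of features. The 18 lower regions (4.18% of the window, 1.6% of all) became 29 when joined at 250 bp (4.03%, against 1.96%), 45 as single spots (3.21%, against 1.87%) and 34 with no signal filter (6.64%, against 4.88%). They became 50 with normexp (11.6%, against 6.17%), 10 with at least 2 spots (3.39%, against 1.06%) and 10 at 2-fold (2.32%, against 0.466%). The 14 higher regions (3.25%, against 1.95%) became 25 as single spots (1.78%, against 1.06%). They became 7 when only spots with both channels above background were kept (1.74%, against 0.545%). They became 5 with normexp (1.16%, against 0.365%) or with at least 2 spots (1.69%, against 0.446%). Leaving out an array, so that 1 array decides, gave 67 to 93 lower regions (15.5% to 21.6%, against 12.7% to 17.7% of all) and 32 to 49 higher (7.42% to 11.4%, against 4.21% to 10.8%). Over 4-fold lower were then 12 of 307 in all without pair 1 and 9 of 249 without pair 4, and the window median log2 ratio was -0.057 to 0.080. The calls by limma went from 0 to 21 with normexp, 14 with loess, 7 with at least 2 spots and 11 with a trend and robust prior. The Tlr2 transcript had -6.43 from processed signals without loess. Dropping dim spots before joining, or averaging spots of 1 position first, both chosen after seeing the data, gave 19 and 18 lower regions. No paired analysis was possible because each array already holds a pair, and the arrays that share a number measure DNA and RNA, which were not compared as groups. Dim spots limit the higher calls: 7 of 14 have a wild-type channel not above background. Some lower calls were dim as well, although flagged above background.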

Other observations

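Outside the window, 18 regions on 13 chromosomes were over 4-fold lower on both arrays. Only 2 of these 18 rested on at least 2 spots, against 7 of the 8 in the window. One is chr9:44950614-44951162, with 3 spots at a mean log2 ratio of -4.26, next to the single spot chr9:44949977-44950035 at -4.68. The other is chr5:146267158-146267272, with 2 spots at -3.91. Among the 7 in the window, chr3:79371279-79371323 and chr3:83148435-83148494 were each read by 2 spots of a single position. Over the rest of chromosome 3, 0 of 736 regions were over 4-fold lower and 9 were over 1.6-fold lower (1.22%).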
